A study of Mus musculus with 58 samples.

Results

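Genes of potassium channels were taken from bulk RNA sequencing of mouse prefrontal cortex by their symbols alone. A protein-coding gene was a member when its symbol was Kcn, then letters, then a number, and when at least 4 libraries had 10 or more normalized reads of it (reads divided by a scaling factor of each library). There were 81 members among the 18088 genes of the deposited table, and 17925 genes in all passed the same filter and were tested. The annotation holds 92 genes with such a symbol; 81 of them are in the table and passed the filter, and the other 11 were not analysed here. The rule uses no measured difference between groups, but it was chosen with earlier results of these data known. Nearest to the limit of the filter were Kcnn4, with 10 or more reads in 11 libraries, and Kcnj15, with as many in 15; no gene of the table lay just outside it. In 74 members every one of the 58 libraries reached 10 reads.

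Potassium channels let potassium leave a cell, which holds the membrane at rest, ends the action potential and sets how often a neuron fires. The pore-forming subunits fall into voltage-gated channels (Kv1 to Kv4, KCNQ, and the EAG, ERG and ELK types), calcium- and sodium-activated channels (BK, SK, Slack), inward rectifiers (Kir) and the two-pore-domain channels that carry a leak current (K2P). Other members are not pores of their own: silent Kv subunits change Kv2 channels, and beta subunits, KChIP proteins and KCNE proteins alter the gating or the traffic of the pores they join. In cortex, glia use Kir channels to take up potassium that neurons release, and vessels use them to match blood flow to activity.

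The mice were C57BL/6J, and each of the 58 libraries is a numbered replicate of prefrontal cortex at postnatal day 25. The labels do not say that each came from a mouse of its own; a library is called a mouse here, and p-values measure the spread between these libraries. The genotype labels were heterozygous (HT) or wild type (WT) for Tanc2, which encodes a scaffold protein of synapses; they do not describe the altered allele. From postnatal day 3 to day 24, that is for 3 weeks, pups had either of the drugs lithium, a mood stabiliser, and fluoxetine, which blocks serotonin reuptake, or vehicle by way of the mother's milk. Females and males were both used, 5 of each sex in each combination of genotype and drug, except for 4 males in WT vehicle and 4 in HT lithium. The 6 arms thus held 9 WT vehicle, 10 WT fluoxetine, 10 WT lithium, 10 HT vehicle, 10 HT fluoxetine and 9 HT lithium mice. Milk is shared by a litter and litters are not labelled, so mice of the same dam may have been counted as independent in the p-values. In bulk tissue fewer cells of a type and less RNA per cell cannot be told apart.

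Libraries held 23271044 to 37801615 reads (median 27912120), and the members took a median of 0.591% of them, from 0.510% to 0.621%. Tanc2 itself was not lower in the HT groups. Its log2 difference, HT minus WT, was 0.10 ± 0.04 (SE) under vehicle, 0.10 ± 0.04 under fluoxetine and 0.09 ± 0.04 under lithium. The unadjusted limma p was 0.0244, 0.0237 and 0.0462, and none passed (adjusted p = 0.947, 0.745 and 0.436). The level of Tanc2 thus does not check the genotype labels. Markers of excitatory neurons, the main cell type of the tissue, summed to 130554 to 222831 normalized reads. Gm10221, a pseudogene, had reads in 27 libraries and none in 31: it was present in all 19 lithium libraries and in 8 of 10 fluoxetine females, and absent from every vehicle library and every fluoxetine male. Lithium and this feature of the libraries can therefore hardly be told apart, and for every named channel gene that passed with lithium a value with a Gm10221 term is also given.

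Promoter windows of 3 members are shown here because these genes had the largest differences that passed for fluoxetine or lithium in either genotype among members with a window. RefSeq windows (GRCm38.p6, 250 bases before to 50 bases after a start) were found for 58 of the 81 members. Each window is written 5′ to 3′ on the strand of the gene. Capitals mark matches on either strand to a motif that was searched: the cAMP response element TGACGTCA, its part TGACG, the AP-1 site TGANTCA, the EGR site GCGNGGGCG, the GC box GGGCGG and the TATA box TATAAA. The part TGACG lies within the whole element, and EGR sites and GC boxes can overlap.
Kcnj2, plus strand of chr11:111065914-111066213: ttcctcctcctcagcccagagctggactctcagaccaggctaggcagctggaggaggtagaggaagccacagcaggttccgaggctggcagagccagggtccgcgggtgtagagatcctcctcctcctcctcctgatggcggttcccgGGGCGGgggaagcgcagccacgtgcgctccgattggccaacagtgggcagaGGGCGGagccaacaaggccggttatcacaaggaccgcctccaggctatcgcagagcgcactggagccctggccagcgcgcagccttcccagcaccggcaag
Kcne4, plus strand of chr1:78816661-78816960: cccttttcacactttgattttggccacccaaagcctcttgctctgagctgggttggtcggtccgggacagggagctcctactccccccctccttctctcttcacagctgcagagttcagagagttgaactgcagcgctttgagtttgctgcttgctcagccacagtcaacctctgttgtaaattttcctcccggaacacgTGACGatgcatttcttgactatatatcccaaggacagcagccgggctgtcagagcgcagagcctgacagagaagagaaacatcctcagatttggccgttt
Kcng3, minus strand of chr17:83631846-83632145: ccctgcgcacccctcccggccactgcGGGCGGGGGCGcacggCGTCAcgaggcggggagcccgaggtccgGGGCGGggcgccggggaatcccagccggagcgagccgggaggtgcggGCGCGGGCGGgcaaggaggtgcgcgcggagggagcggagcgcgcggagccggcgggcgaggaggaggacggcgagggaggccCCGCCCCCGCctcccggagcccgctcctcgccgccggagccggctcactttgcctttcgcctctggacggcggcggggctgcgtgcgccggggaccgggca
The Kcnj2 window had a GC content of 66.7% and 2 GC boxes, that of Kcne4 52.7% and 1 TGACG, and that of Kcng3 82.0%, with 49 CG pairs, 4 GC boxes, 3 EGR sites and 1 TGACG. Over all 32851 windows GC boxes occurred in 35.7%, TGACG in 20.8% and EGR sites in 5.55%, while the 81 windows of these 58 members (some have several) held them in 50.6%, 18.5% and 4.94%. The whole cAMP response element was in 1.79% of all windows and in none of the 81 member windows. AP-1 sites were in 7.81% and 3.70%, and TATA boxes in 13.6% and 6.17%. A match says only that these letters are in the window.

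Levels of the members spanned more than 3 orders of magnitude on the scale of normalized reads per kilobase of exon, the scale on which genes can be compared. The highest was Kcnj4 at 1753 reads per kilobase, which encodes the inward rectifier Kir2.3. Next came Kcnab2 (1588), a beta subunit of Kv1 channels, Kcnk1 (1240), the two-pore channel TWIK-1, Kcnf1 (1198), a silent Kv subunit, and Kcnip3 (1168), a calcium-binding KChIP protein also known as DREAM. The median over members was 150.5 reads per kilobase. At the lower end stood Kcnn4 and Kcnj15 (1.2 each), Kcnj5 (2.44), Kcnh8 (3.46) and Kcnmb1 (4.37). Above 500 reads per kilobase there were 23 members, and 8 lay under 10.

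Among voltage-gated pores the leading members were Kcnh3 (ELK type, 826 reads per kilobase), Kcna2 (Kv1.2, 726), Kcnc4 (Kv3.4, 693) and Kcnd2 (Kv4.2, 547). Kcnd2 makes the fast transient current of dendrites. For calcium- and sodium-activated channels they were Kcnma1 (the BK pore, 651), Kcnt1 (Slack, 470.3) and Kcnn2 (SK2, 140.3). Kcne4 (14.9), an inhibitory KCNE subunit, was the only KCNE gene among the members. Among the Kir genes, levels ran from the 1753 of Kcnj4 through 868 for Kcnj10, the glial channel Kir4.1, to 99.8 for Kcnj2 (Kir2.1), the classical strong inward rectifier. Variation between mice of a group had a median coefficient of variation of 11.7% over members, 10.3% for the 52 members with a mean above 500 reads and 39.9% for the 11 under 50 reads, so that only large differences could be seen in the lowest genes.

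**Figure D1:**
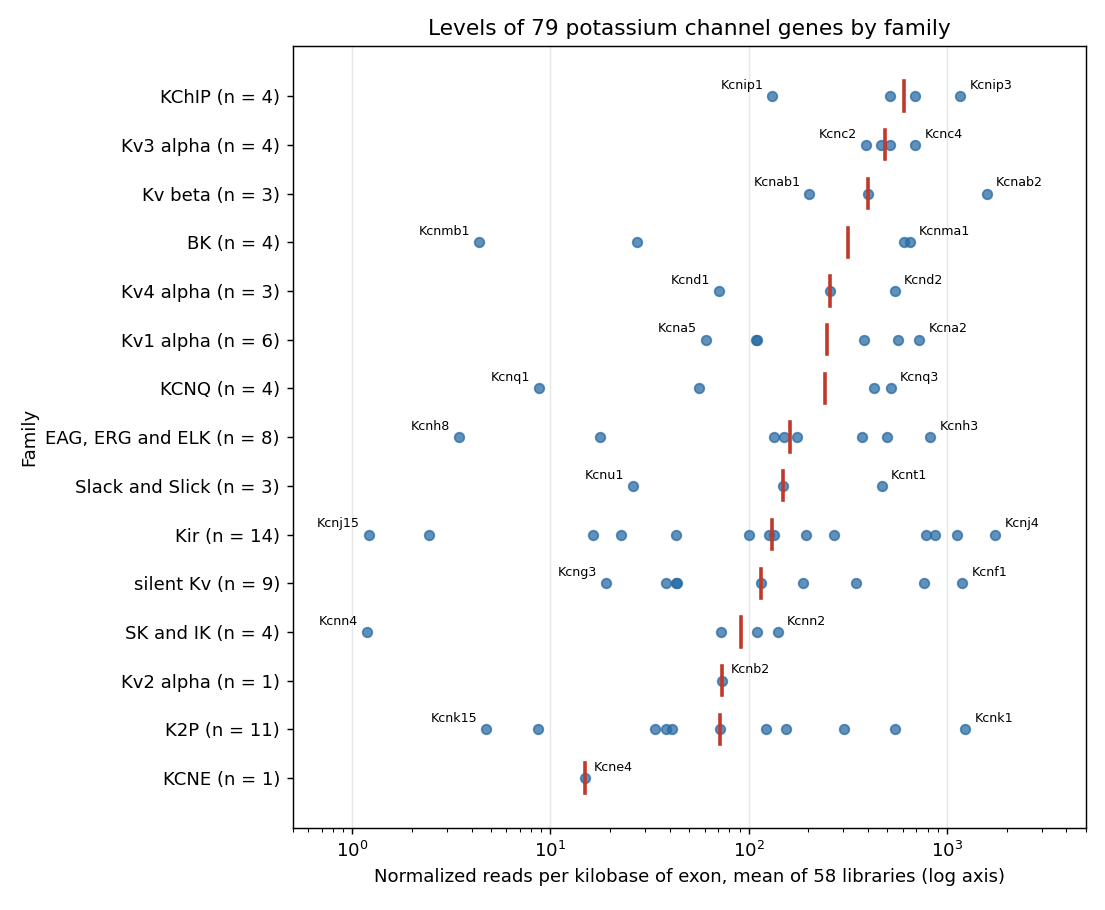
Level of 79 of the 81 potassium channel genes (points) as normalized reads per kilobase of exon, mean of 58 libraries, on a log axis, by family; red lines are medians of those drawn, and the highest and lowest of those drawn in each family are named. Kcnj4 stands highest at 1753 and Kcnn4 lowest at 1.2, and the Kir family has the widest range.

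With fluoxetine Kcnj2 was higher in both genotypes, and it was the only member that rose: 1 of 81 in each, where 0.469% of all genes rose in WT and 1.46% in HT. In WT vehicle mice its lowest, median and highest values were 381, 437 and 694 normalized reads, and in WT fluoxetine mice 514, 662 and 849.6. All 10 treated mice lay above the vehicle mean of their sex, 3 of them above every vehicle mouse, and the arms overlapped. Among HT mice the values were 354, 475 and 541 with vehicle and 643, 672 and 912 with fluoxetine. Here the arms did not overlap, and all 10 treated mice exceeded the highest vehicle mouse. The means went from 490.4 ± 107 (SD, n = 9) to 658 ± 112 (n = 10) in WT and from 457 ± 61.6 (n = 10) to 721 ± 93.4 (n = 10) in HT. The log2 difference was 0.42 ± 0.11 (SE; limma adjusted p = 0.0357) in WT, a rise of 34.2%, and 0.66 ± 0.11 (adjusted p = 8.82e-05) in HT, a rise of 57.8%. Kcnj2 (ENSMUSG00000041695) lies on the plus strand of chromosome 11, GRCm38, from 111066164 to 111076821, with the promoter shown above.

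The rise of Kcnj2 in HT was of like size in females (0.59 ± 0.15, adjusted p = 0.0244) and males (0.73 ± 0.15, adjusted p = 0.0175), and the latter hold no Gm10221 reads. In WT it was 0.35 ± 0.15 in females and 0.50 ± 0.16 in males, where neither passed alone (adjusted p = 0.466 and 0.505). A Gm10221 term in the fit gave 0.49 ± 0.12 in WT (adjusted p = 0.0176) and 0.76 ± 0.12 in HT (adjusted p = 8.47e-05). Among fluoxetine mice only females held Gm10221 reads, so this term can hardly be told apart from a sex difference there. The effect in HT minus that in WT was 0.23 ± 0.16 with a 95% interval of -0.08 to 0.55 (adjusted p = 0.798), so a difference between genotypes was not shown. The WT call ended without any 1 of 10 of the 19 libraries, WT vehicle females 3, 4 and 5, males 1, 2 and 4 and WT fluoxetine female 1, males 1, 2 and 4 (differences of 0.39 to 0.42, adjusted p up to 0.114), and in a fit of only the groups compared; in HT no single library ended it.

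Kcne4, whose protein dampens the Kv and KCNQ pores it joins, fell in HT mice with fluoxetine. Vehicle mice had 31.3, 47.3 and 59.6 normalized reads (lowest, median, highest) and fluoxetine mice 24.96, 33.7 and 37.8. Every treated mouse lay below the vehicle mean of its sex and 4 of 10 below all vehicle mice. The log2 difference was -0.46 ± 0.12 (adjusted p = 0.0244); with the Gm10221 term it was -0.52 ± 0.15 and did not pass (adjusted p = 0.0694), and 3 of 20 single libraries left out ended the call (any 1 of HT vehicle females 3 and 5, male 4, adjusted p up to 0.0570). In WT the difference was -0.39 ± 0.13 and did not pass (adjusted p = 0.128). Kcnn2, an SK channel gene, came next by p with 0.13 ± 0.05 in WT (adjusted p = 0.338) and 0.15 ± 0.05 in HT (adjusted p = 0.0949), neither of which passed.

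No other channel gene passed with fluoxetine. In WT 1 of 81 members passed against 1.38% of all 17925 genes (0.469% higher and 0.915% lower), and in HT 2 of 81 against 3.54% (1.46% higher and 2.09% lower). Median log2 differences over the members were -0.02 in WT, with 31 of 81 above 0, and -0.0031 in HT, with 39 above 0; over all genes they were 0.00044 and 0.0031. Of the 14 Kir genes 13 did not pass in either genotype. Kcnj16, the gene that lies 38.2 kb from Kcnj2 on chromosome 11 and was named here after its values were seen, had 0.07 ± 0.07 in WT and -0.02 ± 0.06 in HT (adjusted p = 0.82 and 0.923). All 11 K2P, 6 Kv1 and 8 EAG, ERG and ELK genes failed the test in both genotypes. The WT and HT effects, which share no library, had the same sign in 39 of 81 members (48.1%; 56.3% of all genes).

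Kcnj2 is transcribed in vascular endothelium as well as in neurons, and endothelial markers are therefore given beside it. In HT fluoxetine 1 of 8 markers was higher and 0 lower, 5 of 8 lay above 0, and the median was 0.06. Their summed level was 6107 to 8014 normalized reads in HT vehicle and 6444 to 9927 in HT fluoxetine. For WT, 0 were higher and 1 lower, 1 of 8 lay above 0, the median was -0.10, and the sums were 6128 to 8363 with vehicle and 5925 to 7851 with fluoxetine. The endothelial median was above 0 in HT, where Kcnj2 differed by 0.66, and below 0 in WT, where Kcnj2 differed by 0.42. No marker was at 0 in any arm, and the part of these cells in the Kcnj2 values was not tested. Other lists had medians farther from 0 in HT fluoxetine, with 0 markers passing in each. They were olfactory bulb (-0.78, 0 of 8 above 0), red blood cell (-0.40, 0 of 5), striatal (0.27, 8 of 8) and microglia (0.15, 8 of 8). In WT fluoxetine the same lists had 0.15, -0.36, -0.14 and -0.02. Sums in HT vehicle and HT fluoxetine were 2417 to 18207 and 2088 to 17571 for olfactory bulb, 8116 to 21703 and 7147 to 16575 for red blood cell, 5258 to 7238 and 6223 to 13409 for striatal, and 8958 to 10310.2 and 9623 to 13035 for microglia markers; their part was not tested either.

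**Figure D2:**
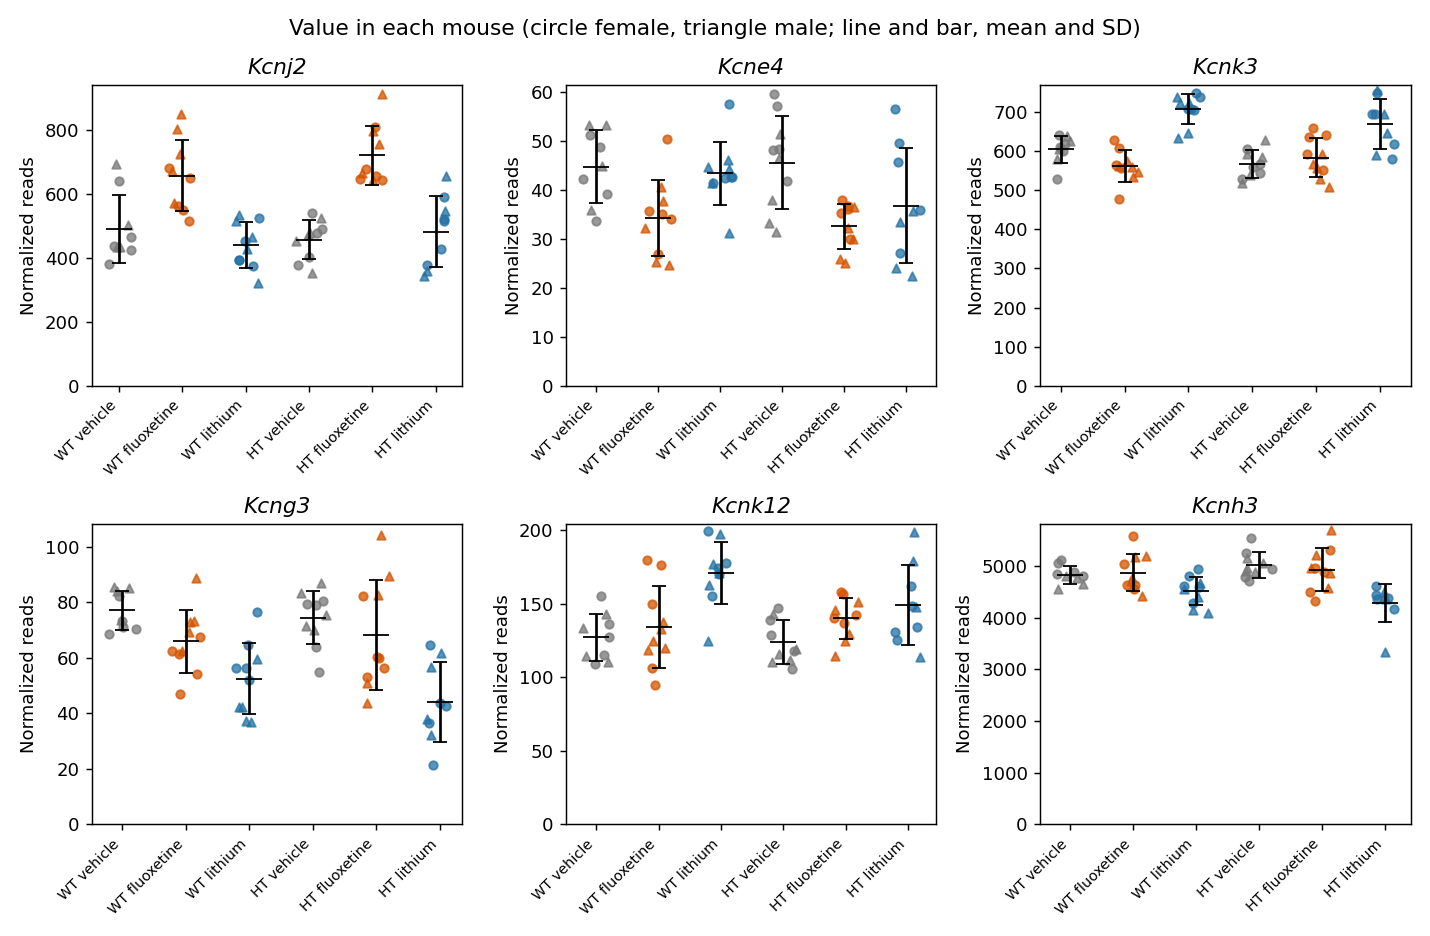
Normalized reads of 6 channel genes in each mouse of the 6 arms (circles, females; triangles, males; horizontal line and bar, mean and SD; axes start at 0). The HT fluoxetine mice lie at 643 or more for Kcnj2, above every HT vehicle mouse (541 at most), and both lithium arms have the highest means for Kcnk3 and the lowest for Kcng3.

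With lithium 6 of 81 members passed in WT (3 higher and 3 lower) and 9 of 81 in HT (4 higher and 5 lower). Among those that passed, 4 of the genes that rose were two-pore genes, and the genes that fell included members of the ELK and silent Kv families. All genes tested passed in 7.47% of cases in WT (4.34% higher, 3.13% lower) and in 16.3% in HT (8.25% higher, 8.03% lower), so the members' share, 7.41% and 11.1%, was near or under that background. The median member had -0.02 in WT and -0.03 in HT, with 36 of 81 above 0 each time, against -0.0055 and 0.000049 over all genes. Called in both genotypes were 3 members, among them Kcng3 and Kcnk3, which is 50% of the 6 and 33.3% of the 9. The same overlap over all genes is not given here, so these shares have no background to be read against. The signs matched between the genotypes, whose lithium effects share no library, in 69 of 81 members (85.2%; 71.8% of all genes), and the effects correlated across members at r = 0.63 (0.60 across all genes), a description of genes that are not independent.

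Kcnk3, the acid-sensitive leak channel TASK-1, rose in both genotypes. WT mice had 530.0, 609.9 and 643 normalized reads (lowest, median, highest) with vehicle and 635, 716 and 749.9 with lithium, where 9 of 10 treated mice lay above all vehicle mice. HT mice had 518, 563 and 630.1 and 579, 695 and 756, with 6 of 9 treated mice above all vehicle mice. The log2 difference was 0.22 ± 0.05 in WT (adjusted p = 0.00222), a rise of 16.8%, and 0.24 ± 0.05 in HT (adjusted p = 0.000491), a rise of 17.8%. No single library ended either call. The gene lies on the plus strand of chromosome 5, from 30588170 to 30625271.

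Other two-pore genes rose in a single genotype. Kcnk12, which encodes THIK-2, went from 109, 127 and 155 to 125, 173 and 199 normalized reads in WT, with 9 of 10 lithium mice above every vehicle mouse (0.42 ± 0.10, adjusted p = 0.00396). In a fit that took out the trends of the differences on GC content and transcript length, the WT difference of Kcnk12 was 0.06 and did not pass (adjusted p = 0.789). In HT its difference was 0.26 ± 0.10 and did not pass (adjusted p = 0.0584). Kcnk2, the mechanosensitive channel TREK-1, went from 1258, 1419 and 1521 to 1432, 1579 and 1778 in HT (0.19 ± 0.06, adjusted p = 0.0172), and 7 of the 9 treated mice lay above every vehicle mouse; without HT lithium male 1 it did not pass (adjusted p = 0.0528), nor with length and GC trends removed (0.16, adjusted p = 0.0527). Kcnk6, which encodes TWIK-2, rose by 0.26 ± 0.09 in HT (adjusted p = 0.0458), a call that ended without any 1 of 11 libraries, HT vehicle females 4 and 5, males 2, 4 and 5 and HT lithium females 3, 4 and 5, males 2, 3 and 4 (adjusted p up to 0.126). In WT Kcnk2 and Kcnk6 had 0.13 ± 0.06 and 0.18 ± 0.09 and did not pass. Of all genes 4.34% rose with lithium in WT and 8.25% in HT. Over the two-pore family, 8 of 11 genes lay above 0 in WT (2 higher, 0 lower, median 0.13) and 8 of 11 in HT (3 higher, 0 lower, median 0.19). None of these differences between genotypes passed as an interaction.

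Kcng3, a silent subunit (Kv6.3) that joins Kv2 pores, had the largest fall. In WT it went from 68.7, 73.7 and 85.5 normalized reads to 37.1, 54.2 and 76.7, and in HT from 55.1, 77.4 and 86.9 to 21.2, 42.8 and 64.7 (lowest, median, highest). Below every vehicle mouse lay 9 of 10 treated WT and 6 of 9 treated HT mice. The log2 difference was -0.59 ± 0.14 (adjusted p = 0.00551) and -0.79 ± 0.14 (adjusted p = 7.56e-05), which is 33.5% and 42.2% lower. The sexes had -0.26 (females) and -0.91 (males) in WT, and -0.83 and -0.75 in HT. For the lithium effect, the difference between sexes passed for 0 members and for 0 of all genes tested in either genotype. For the fluoxetine effect it passed for 0 members, and for 0 of all genes in WT and 2 in HT. These counts do not show that the sexes were alike. The level is low, 19.0 reads per kilobase, and the gene is on the minus strand of chromosome 17, from 83585957 to 83631895. Kcnb2, a pore it can join, did not pass, with -0.12 ± 0.12 in WT and -0.09 ± 0.12 in HT. Among the other 8 silent Kv genes none passed with lithium.

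In HT mice 2 of the 3 ELK genes fell with lithium, where 8.03% of all genes fell. Kcnh3 (Kv12.2) went from 4706, 4950.2 and 5541 to 3342, 4391 and 4619 normalized reads, and the arms did not overlap (-0.24 ± 0.04, adjusted p = 0.000164). HT lithium male 2 lay apart at 3342; without it the difference was -0.19 and still passed (adjusted p = 0.00142). Kcnh4 (Kv12.3) went from 463, 548 and 674 to 289, 454 and 648 with overlap (-0.33 ± 0.09, adjusted p = 0.00624). In WT they had -0.10 ± 0.04 and -0.12 ± 0.09 and did not pass. Kcnh8, the remaining ELK gene, is scarce (3.46 reads per kilobase) and had 0.01 ± 0.25 in HT.

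A further 4 members passed with lithium in a single genotype. Kcnn2 (SK2, which makes the calcium-activated current after a spike) rose in WT by 0.17 ± 0.05 (adjusted p = 0.0337), from 983 ± 47.7 (SD, n = 9) to 1117 ± 111 normalized reads (n = 10). Kcnc2, the Kv3.2 pore of fast-spiking interneurons, had -0.21 ± 0.06 in WT (adjusted p = 0.0342), from 3001 ± 173 to 2596 ± 174. Kcna5, the Kv1.5 pore, rose in HT by 0.51 ± 0.18 (adjusted p = 0.0392), from 145 ± 34.4 (n = 10) to 209 ± 45.5 (n = 9), and had 0.50 ± 0.18 in WT, where it did not pass (adjusted p = 0.0751). Kcne4 had -0.37 ± 0.13 in HT (adjusted p = 0.0383) and -0.04 ± 0.13 in WT. These 4 calls stood near the threshold. Kcnc2 did not pass with length and GC trends removed (-0.17, adjusted p = 0.183), Kcna5 did not by edgeR (0.48, adjusted p = 0.0606), and Kcne4 did not by DESeq2 (-0.36, adjusted p = 0.0603). The Kcnn2 call ended without any 1 of 7 libraries, WT vehicle female 4, males 2 and 3 and WT lithium females 4 and 5, males 3 and 5 (adjusted p up to 0.0778), and the Kcnc2 call without any 1 of 9, WT vehicle females 4 and 5, males 1, 2 and 4 and WT lithium females 1 and 4, males 2 and 3 (up to 0.0752). For Kcna5 the libraries were any 1 of 11, HT vehicle females 1, 2 and 5, males 1 and 3 and HT lithium females 2, 4 and 5, males 1, 2 and 3 (up to 0.0909), and for Kcne4 any 1 of 9, HT vehicle females 3 and 5, males 1, 4 and 5 and HT lithium females 2 and 4, males 3 and 4 (up to 0.113).

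**Figure D3:**
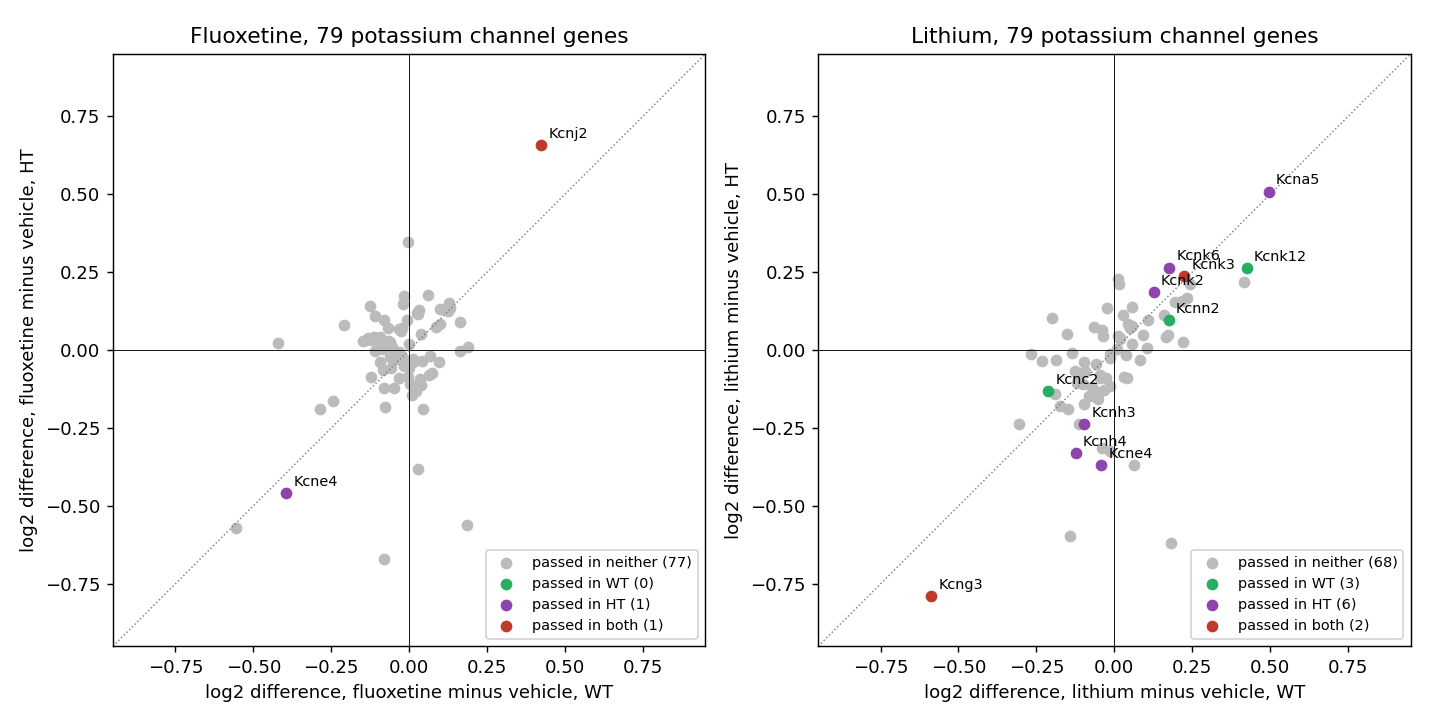
Log2 difference from vehicle of 79 of the 81 members in WT (x axis) and HT (y axis), left for fluoxetine and right for lithium; colours show where a gene passed (adjusted p under 0.05) and the dotted line marks equal effects. Kcnj2 lies alone at the upper right for fluoxetine, and Kcng3 and Kcnk3 passed in both genotypes for lithium.

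With the Gm10221 term no member passed for lithium in either genotype. All 15 differences kept their sign. Kcng3 had -0.41 ± 0.23 in WT (adjusted p = 0.417) and -0.63 ± 0.22 in HT (adjusted p = 0.170), Kcnk3 had 0.16 ± 0.08 (0.334) and 0.17 ± 0.07 (0.251), and Kcne4 had -0.46 ± 0.20 in HT (0.242). In HT Kcnk2 had 0.22 ± 0.08 (adjusted p = 0.195), Kcnk6 0.21 ± 0.14 (0.466) and Kcna5 0.28 ± 0.27 (0.639), and in WT Kcnn2 had 0.12 ± 0.08 (0.541). Values nearer to 0 were those of Kcnc2 (-0.08 ± 0.10), Kcnk12 (0.08 ± 0.14), Kcnh3 (-0.08 ± 0.06) and Kcnh4 (-0.05 ± 0.14). Since every lithium library and no vehicle library holds these reads, the term is estimated from the fluoxetine mice, and the errors of the lithium values are wider. Among the fluoxetine mice, 3 of 5 WT females, 5 of 5 HT females and no males held the reads. The term can thus hardly be told apart from a sex difference of the fluoxetine effect, and the lithium values with it rest on that difference.

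**Figure D4:**
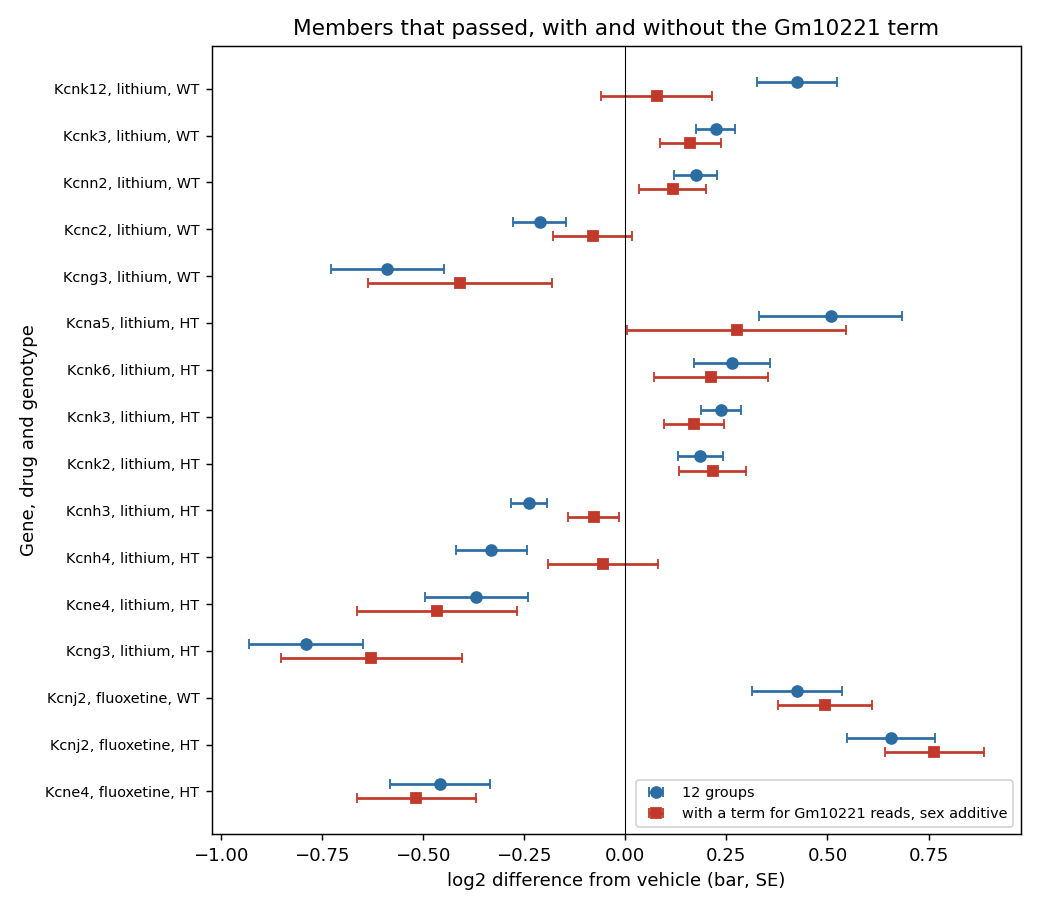
Log2 difference from vehicle (bar, SE) of members that passed, by drug and genotype, in the fit of 12 groups (blue circles) and in the fit with a term for Gm10221 reads and sex additive (red squares). Kcnj2 with fluoxetine stays at 0.49 and 0.76, while Kcnc2, Kcnk12, Kcnh3 and Kcnh4 with lithium move to within 0.1 of 0.

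Markers of neighbouring striatum also varied with lithium. Of 8 markers of striatal projection neurons 7 lay above 0 in each genotype (1 higher and 0 lower in each; medians 0.34 in WT and 0.32 in HT). Their sums ran from 5333 to 21311 normalized reads in WT lithium and from 5358 to 21554 in HT lithium, against 4978 to 8692 in WT vehicle and 5258 to 7238 in HT vehicle. The median sum was 6816 in WT lithium and 6824 in WT vehicle, and 7000 in HT lithium and 5948 in HT vehicle. Olfactory bulb markers had medians of 0.28 and 0.46 (7 of 8 above 0 each), red blood cell markers -0.22 and -0.30 (0 of 5 each) and oligodendrocyte markers -0.21 and -0.19 (0 and 1 of 8), with 0 passing. The median sum of the olfactory bulb list was 7060 in WT lithium and 4739 in WT vehicle. In HT it was lower with lithium (9047) than with vehicle (9692). Interneuron markers lay above 0 in 8 of 8 in both genotypes (0 passed; medians 0.07 and 0.10), and endothelial markers in 1 of 8 in WT and 0 of 8 in HT (0 higher and 1 lower in each; medians -0.08 and -0.19). In each genotype 1 parvalbumin interneuron marker was higher and 1 upper layer marker lower. The parvalbumin and striatal lists share a marker, so their calls may be of the same gene. In WT 1 marker each of microglia and oligodendrocyte precursors was higher. In HT 1 deep layer marker was higher, and 2 of pericytes and smooth muscle were lower. The part of these cells in the channel values was not tested.

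Lithium and fluoxetine mice were also compared directly, which leaves out the vehicle mice. In WT 5 of 81 members passed, 2 higher and 3 lower with lithium, against 9.55% of all genes (5.29% higher and 4.26% lower). In HT 9 of 81 passed, 4 higher and 5 lower, against 6.25% (3.19% and 3.06%). Kcnk3 was higher with lithium in both, by 0.34 ± 0.05 in WT (adjusted p = 2.12e-06) and 0.20 ± 0.05 in HT (adjusted p = 0.0101); in WT all 10 lithium mice, from 635 reads upward, lay above all fluoxetine mice, which reached 629.6. Kcnj2 was lower in both, by -0.58 ± 0.11 (adjusted p = 0.000263) and -0.61 ± 0.11 (adjusted p = 0.000733). Kcnk12 was higher in WT (0.36 ± 0.10), but the value was 0.06 with length and GC trends removed (adjusted p = 0.766) and 0.12 with the Gm10221 term (0.536), and neither passed. Also higher were Kcnk6 (0.32 ± 0.09) and Kcna5 (0.64 ± 0.18) in HT, while Kcng3 (-0.63 ± 0.14) and Kcnh3 (-0.21 ± 0.04) were lower in HT.

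This comparison brought 4 members that had not passed against vehicle. Kcnip4, a KChIP that joins Kv4 pores, was lower with lithium in WT by -0.17 ± 0.05 (adjusted p = 0.0233), with means of 1934 ± 199.7 (SD) and 1716 ± 184 normalized reads. Kcnd3, the Kv4.3 pore, was lower there too (-0.24 ± 0.08, adjusted p = 0.0489), a call that ended without any 1 of 15 libraries, WT fluoxetine females 1, 3 and 4, males 1, 3, 4 and 5 and WT lithium females 1, 2, 3, 4 and 5, males 1, 3 and 4 (adjusted p up to 0.132). The call of Kcnip4 ended without any 1 of WT fluoxetine females 1 and 4 and WT lithium female 5, male 5 (up to 0.0642) and was -0.07 with length and GC trends removed (0.539). In HT Kcnab3, a Kv1 beta subunit, was higher (0.35 ± 0.10, adjusted p = 0.0211), from 1009.9 ± 152 to 1277 ± 112. Kcng4, the silent subunit Kv6.4, was lower in HT (-0.66 ± 0.19, adjusted p = 0.028), from 188 ± 45.02 to 123 ± 45.9. With the Gm10221 term Kcnk3 (0.29 ± 0.06, adjusted p = 0.00281) passed in WT, as did Kcnd3 (-0.33 ± 0.10, adjusted p = 0.0367), and Kcnj2 (-0.50 ± 0.12, adjusted p = 0.0276) in HT. The other named calls of this comparison ended with the term: beside Kcnk12, in WT Kcnj2 had -0.43 (adjusted p = 0.0525) and Kcnip4 -0.16 (0.119). In HT they were Kcnk3 with 0.16 (0.127), Kcng3 with -0.55 (0.0867), Kcnh3 with -0.13 (0.158), Kcnk6 with 0.30 (0.143), Kcna5 with 0.54 (0.172), Kcng4 with -0.55 (0.183) and Kcnab3 with 0.25 (0.228). Both comparisons used the same lithium mice as those against vehicle. Without HT fluoxetine male 3 the HT count was 15, and without HT lithium male 3 it was 5; the WT count was 3 without WT fluoxetine female 1 or 4 or WT lithium female 5. The HT call of Kcnk6 ended without any 1 of HT fluoxetine females 1 and 2, male 4 and HT lithium female 4, males 2 and 3 (adjusted p up to 0.0868). The call of Kcng4 ended without any 1 of HT fluoxetine female 5, male 4 and HT lithium female 4, males 2 and 3 (adjusted p up to 0.0982), and that of Kcnab3 ended without any 1 of HT fluoxetine female 4, male 1 and HT lithium male 3 (adjusted p up to 0.0544). The call of Kcna5 ended without HT fluoxetine male 1 (adjusted p up to 0.0526) and by edgeR (adjusted p = 0.0571). In a limma fit of only the groups compared, the HT calls of Kcna5, Kcng3, Kcng4, Kcnh3, Kcnk3 and Kcnk6 ended (adjusted p of 0.0526 to 0.134). Those of Kcnj2 and Kcnab3 in HT held there. In WT the calls of Kcnip4 (0.123) and Kcnd3 (0.0877) ended in that fit, and Kcnd3 also with quantile scaling (0.0552). Endothelial markers were lower in HT in this comparison (0 higher and 4 lower of 8, median -0.25), and the olfactory bulb list had a median of 1.26 there with 8 of 8 above 0 and 0 passing, over sums of 2088 to 17571 with fluoxetine and 2455 to 13847 with lithium; the part of either in the channel values was not tested.

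Genotype moved no channel gene past the threshold under vehicle, fluoxetine or lithium. The background was 0% in each, with no gene of all 17925 passing by limma. An unadjusted p under 0.05 was seen in 1, 2 and 12 members and in 814, 1114 and 2006 genes. By edgeR 0 members and 0 genes passed in each, and by DESeq2 0 members and 3, 2 and 16 genes. The smallest p among members belonged under vehicle to Kcna6 (-0.16 ± 0.08), Kcnk3 (-0.10 ± 0.05) and Kcnj10 (-0.15 ± 0.08), each with adjusted p = 0.947. Under fluoxetine they were Kcnh2 (-0.14 ± 0.06), the ERG channel gene, Kcnd2 (-0.10 ± 0.05) and Kcnj3 (-0.09 ± 0.04), a GIRK subunit gene. Under lithium came Kcng4 (-0.53 ± 0.19, adjusted p = 0.274), Kcnc1 (-0.13 ± 0.05), the Kv3.1 pore, and Kcnip4 (0.13 ± 0.05). In lithium mice 57 of 81 members lay lower in HT (median -0.05), while over all genes 50.6% lay above 0.

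By limma and edgeR, interactions of drug and genotype passed for no member and for no gene (0%); by DESeq2 they passed for no member, and for 2 genes with fluoxetine and 4 with lithium. By limma an unadjusted p under 0.05 was seen for fluoxetine in 2 members and 1128 genes, and for lithium in 2 members and 1196 genes. Smallest in p were Kcnk3 (0.15 ± 0.07, HT effect minus WT effect), Kcng1 (0.27 ± 0.12) and Kcna6 (0.22 ± 0.11) for fluoxetine and Kcnh3 (-0.14 ± 0.06, adjusted p = 0.676), Kcnj14 (-0.43 ± 0.21) and Kcnt1 (-0.13 ± 0.07) for lithium. For Kcng3 the lithium interaction was -0.20 ± 0.20 with an interval of -0.60 to 0.20 (95%); differences between genotypes within these bounds could not be seen.

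The BK and Slack families were among the 3 families with no call. Of the 81 members 64 passed in no comparison, and the share of all genes that passed in none is not given here. Among these 64 were the members with the highest levels. The HT lithium values bound how far they can have differed from vehicle in that comparison alone, where lithium and the Gm10221 reads can hardly be told apart. In HT lithium Kcnj4 had 0.05 ± 0.04 (95% interval -0.04 to 0.14), Kcnab2 -0.09 ± 0.06 (-0.20 to 0.02), Kcnk1 0.10 ± 0.06 (-0.02 to 0.21), Kcnf1 -0.03 ± 0.04 (-0.10 to 0.05) and Kcnip3 0.08 ± 0.07 (-0.06 to 0.22). The BK pore gene Kcnma1 had -0.07 ± 0.06 (-0.19 to 0.05) and Kcnt1 -0.09 ± 0.05 (-0.19 to 0.01). Among the scarcest genes the intervals were wide: for Kcnj15 it was -1.25 to 0.01 and for Kcnn4 -0.86 to 1.06.

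Genes whose proteins work with these channels were read from a list of 52, of which 50 were tested. With fluoxetine 0 rose and 1 fell in WT, Lrrc38 (-0.44 ± 0.12, adjusted p = 0.0434), a gamma subunit of BK channels. In HT 3 rose and 0 fell: Vapa (0.17 ± 0.04), an endoplasmic reticulum tether of Kv2 channels, Ppp2ca (0.11 ± 0.03), a phosphatase subunit bound to SK channels, and Abcc9 (0.34 ± 0.09, adjusted p = 0.0217), the sulphonylurea receptor of vascular KATP channels. The fluoxetine calls were 2% and 6% of the list, against 1.38% and 3.54% of all genes. Lithium brought 1 higher and 2 lower in WT and 5 higher and 4 lower in HT, 6% and 18% of the list, near the 7.47% and 16.3% of all genes. With the Gm10221 term 0 of these calls with either drug against vehicle were kept. The values without the term are given here. Csnk2b, a kinase subunit bound to SK channels, rose in both (0.13 ± 0.04 and 0.16 ± 0.04). Snx27, which sorts GIRK channels, fell by 0.12 ± 0.03 in WT. Vapa (0.24 ± 0.04), Ppp2ca (0.13 ± 0.03) and Atp1b1 (0.16 ± 0.03), a beta subunit of the sodium-potassium pump, rose in HT. Against fluoxetine, lithium mice had 1 higher and 2 lower in WT and 1 higher and 4 lower in HT (6% and 10% of the list, against 9.55% and 6.25%); 1 call in each was kept with the term. In HT Abcc9 was lower (-0.48 ± 0.09, adjusted p = 0.000914). By limma no partner gene passed for genotype or for an interaction.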

How the data were processed

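RNA of mouse prefrontal cortex was sequenced from a stranded mRNA kit, per the labels' protocols, in 58 libraries labelled as numbered replicates. The deposited values are a signal made by the authors: estimates of reads per gene that were scaled by each library's size factor, with Salmon 0.11.2, R 3.6.0, DESeq2 1.19.11 and GRCm38 named in the submitters' processing notes; their options, and whether strand was used in counting, are not given in the sources used here. Each library's values are whole multiples of 1 step (0.788 to 1.30), and 100% came out as whole reads within 0.01; in 11 libraries the step is too near 1 to tell.

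Genes with 10 or more normalized reads in at least 4 libraries were tested with limma 3.58.1 (R 4.3.3), with a mean trend, on log2(value + 1), in 1 fit of 12 groups of genotype, drug and sex, the sexes weighing equally. Tests were two-sided, Benjamini-Hochberg adjustment ran over all 17925 genes of a comparison, and a gene passed at an adjusted p under 0.05. Fold changes on this scale understate those of low genes. On the whole reads, edgeR 4.0.16 (quasi-likelihood) called 1355 genes for lithium in WT and 2889 in HT, and DESeq2 1.42.0 called 1482 and 2987, against 1339 and 2919 by limma. The scripts were tested on simulated data. Gene lengths, types and positions are those of GENCODE M21 (18077 of 18088 identifiers matched).

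Genes named are members that passed, the 3 smallest p where fewer passed, the highest and lowest levels, the leading gene of each family, and partner genes that passed (up to 5 a comparison); 3 of these genes are not reported here and are not drawn, but counts over members and lists include them. Members and lists of partners and markers were chosen with earlier results of these data known. Alternatives were the tools above, filter, pseudocount, quantile scaling, length and GC trends, a Gm10221 term, each sex alone, only the groups compared, a replicate block and leaving out each library; the contrast between sexes, the Gm10221 term for partner genes and a block by library name were chosen after seeing the data. No library repeated another (lowest chi-square per degree of freedom within a group 3.51). Kcnip1 and Kcnmb1 overlap on chromosome 11, so their values are uncertain.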

Additional observations from a re-analysis of the deposited data

Results flagged for a closer look

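In 18 of 192 groups (16 genes, each in 12 groups of genotype, drug and sex, 9.38%) the highest or lowest mouse was set apart from the others of its group by a gap wide for the range of the group. Chance sets apart about 1 in 20 groups. Values are normalized reads, with the range of the other mice of the group in brackets.

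Of the Kv1 group and its partners, Kcna5 was 269.8 in WT fluoxetine male 5 (107 to 129). Kcnab3 was 1755 in WT fluoxetine female 3 (902 to 1134) and 1541 in WT fluoxetine male 5 (887 to 1065). Among Kv4 genes Kcnd3 was 2731 in WT vehicle male 3 (2251 to 2285) and 3206 in WT fluoxetine male 5 (2482 to 2555), and Kcnip4 was 2102 in HT vehicle female 1 (1775 to 1851). WT fluoxetine male 5 was thus the highest of its group for 3 genes. It was also the lowest for Kcnh4, at 463 (568 to 600.1).

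The silent subunit gene Kcng3 was 73.7 in WT vehicle male 3, the lowest there (84.2 to 85.5), 59.8 in WT lithium male 5 (37.1 to 42.4) and 82.2 in HT fluoxetine female 4 (53.2 to 60.4). Kcnh4 was 614 in HT fluoxetine female 4 (459 to 473) and 648 in HT lithium female 2 (448 to 505). Kcnh3 was lowest in HT lithium male 2 at 3342 (4360.3 to 4504).

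Kcnj2 was 810.02 in HT fluoxetine female 4 (643 to 679). Among two-pore genes Kcnk12 was 143 in HT vehicle male 5 (110.1 to 119) and Kcnk2 was 1639 in WT vehicle male 4 (1379 to 1415). Kcnn2 was 1248 in WT fluoxetine male 2 (1051 to 1106), and Kcne4 was 57.5 in WT lithium female 2 (41.4 to 42.7).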

How the results depend on the processing

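Of the 32 calls of members against vehicle or between drugs, 31 held with DESeq2, 30 with edgeR, 31 with quantile scaling and 26 with length and GC trends removed. All 32 held without the filter, with a filter of 50, with pseudocounts of 0.1 and 5 and with the replicate block. Far fewer held in females alone (8) or males alone (10), each with fewer mice, in a fit of only the groups compared (20), and with the Gm10221 term (5). Counts of members past the threshold were as follows. With fluoxetine in WT it was 1, and 0 in females, in males and in the groups compared; in HT it was 2, and 1 in females, in males and with the Gm10221 term. For lithium in WT it was 6, against 2 in females, 1 in males, 0 with the Gm10221 term and 15 in the groups compared. For lithium in HT it was 9, against 5 in females, 3 in males, 0 with the Gm10221 term and 14 with quantile scaling. Between lithium and fluoxetine in WT it was 5, against 1 in females, 3 in males, 3 with the Gm10221 term, 8 with length and GC trends removed and 3 in the groups compared; in HT it was 9, against 0, 4 and 1 for the first 3 of these and 2 in the groups compared. Leaving out 1 library gave 0 to 1 and 1 to 2 members for fluoxetine in WT and HT, 4 to 8 and 6 to 12 for lithium, and 3 to 6 and 5 to 15 between the drugs. For genotype and interactions the count was 0 in every fit that was run. The values of 1 sex are contrasts within the same fit of 12 groups, and each compares fewer mice. Why the counts differ was not tested for any setting. Depth limits the 11 members under 50 reads.

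With the replicate number as a block the counts were the same (1 and 2 for fluoxetine, 6 and 9 for lithium, 5 and 9 between drugs, in WT and HT). The numbers do not pair the mice: over 141 pairs of the same number the mean correlation was 0.0078 (lowest -0.338, 22.7% over 0.1), and 14 of 58 libraries correlated best with their own number. Numbers are those of the sample titles. In 2 libraries, WT vehicle males 3 and 4, the library name ends in another number (4 and 5). With the numbers of the library names, chosen after seeing the data, the block gave the same counts, and over 140 pairs the mean correlation was 0.0027 (22.1% over 0.1).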
